A study of Mus musculus with 4 samples.

Results

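Coagulation and complement proteins are made largely in the liver, and 42 genes of these systems were examined for binding of small heterodimer partner (SHP) in liver chromatin. A peak was assigned to a gene when its interval lay within 5 kb of the gene body in the GENCODE M1 annotation, which uses the mouse build mm9 as the peaks do. The list is 42 of the 22380 protein-coding genes of that annotation. It was chosen by hand with the peaks of these libraries already known, so the counts below describe what was selected on and are given without a test. Of the 42 genes, 16 had a peak in the vehicle list and 18 in the FGF19 list, which makes 19 genes with a peak in either list and 23 in neither. Together they had 30 peaks in the vehicle list, which holds 1508, and 39 in the FGF19 list, which holds 3155.

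The mice were wildtype C57BL/6 males of 8 to 12 weeks that were fasted for 12 h. They received either vehicle or FGF19 at 1 mg/kg through the tail vein, and livers were taken after 2 h. Sheared chromatin was precipitated with an SHP antibody, and material of 3 mice was pooled, so each group consisted of 1 ChIP library and 1 input library. The spread between mice could not be measured, and differences between the groups are differences between these libraries. After the authors' filter the ChIP libraries held 15473647 tags with vehicle and 13444078 with FGF19, and tags were extended to 240 and 260 bp. Whole liver contains hepatocytes and other cells, and peak positions alone give no check of the tissue, since no transcripts were measured in these libraries.

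SHP belongs to the nuclear receptors but cannot itself bind DNA. It reaches chromatin through other proteins and is best known as a repressor of bile acid synthesis genes. FGF19, whose mouse counterpart is FGF15, is an intestinal hormone that signals to the liver after a meal. In coagulation, serine proteases activate each other in sequence until thrombin cleaves fibrinogen to fibrin, serpins and the protein C pathway restrain the cascade, and plasmin dissolves the clot. Complement is a parallel protease cascade of the blood. It converges on C3, marks surfaces for clearance and ends in a pore built from the terminal components.

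The genomic sequences below show examples of peaks outside untranslated sequence. Each is the 201 bases around the summit of the strongest peak of a functional group that could be printed, 5′ to 3′ on the transcribed strand in mm9. Capitals mark exon bases of the gene, and lower case marks the adjoining intron. Peaks whose summit fell in an untranslated part of any annotated transcript were passed over, which concerned stronger peaks at F10, Plg and C8a, so that the place of these examples in coding sequence follows from the choice. F2 stands for the coagulation factors, with 6.47-fold enrichment against 7.25-fold at F10. Hrg stands for its group because the stronger peaks at Plg and Proc are given by their values only. No terminal complement sequence is printed, since the remaining vehicle peak there, at C8g, lay nearest the start of another gene.
Fga exon 5, vehicle, chr3:82835541-82835741: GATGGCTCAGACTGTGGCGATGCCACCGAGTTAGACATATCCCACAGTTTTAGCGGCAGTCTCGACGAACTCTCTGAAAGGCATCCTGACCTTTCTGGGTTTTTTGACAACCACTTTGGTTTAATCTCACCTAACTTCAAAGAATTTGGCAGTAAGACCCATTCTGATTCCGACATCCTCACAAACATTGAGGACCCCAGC
F2 exon 7, vehicle, minus strand, chr2:91470693-91470893: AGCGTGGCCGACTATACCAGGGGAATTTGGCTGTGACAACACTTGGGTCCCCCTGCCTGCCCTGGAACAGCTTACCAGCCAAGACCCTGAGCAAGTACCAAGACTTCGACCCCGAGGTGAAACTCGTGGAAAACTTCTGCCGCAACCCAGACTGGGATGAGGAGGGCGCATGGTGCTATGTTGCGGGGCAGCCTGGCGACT
Hrg exon 7, FGF19, chr16:22960848-22961048: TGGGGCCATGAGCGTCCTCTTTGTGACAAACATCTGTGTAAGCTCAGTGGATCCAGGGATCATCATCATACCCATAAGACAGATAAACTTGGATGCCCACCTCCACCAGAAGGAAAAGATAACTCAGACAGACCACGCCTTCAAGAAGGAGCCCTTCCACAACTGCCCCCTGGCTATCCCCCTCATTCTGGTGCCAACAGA
Serpinc1 exon 6, vehicle, chr1:162927566-162927766: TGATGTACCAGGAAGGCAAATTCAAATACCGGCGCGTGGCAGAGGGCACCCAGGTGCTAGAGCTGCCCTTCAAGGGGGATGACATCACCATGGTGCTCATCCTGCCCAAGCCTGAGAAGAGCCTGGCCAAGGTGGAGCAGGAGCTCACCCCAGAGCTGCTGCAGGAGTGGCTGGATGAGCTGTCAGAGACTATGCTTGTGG
C3 exon 24, vehicle, minus strand, chr17:57355161-57355361: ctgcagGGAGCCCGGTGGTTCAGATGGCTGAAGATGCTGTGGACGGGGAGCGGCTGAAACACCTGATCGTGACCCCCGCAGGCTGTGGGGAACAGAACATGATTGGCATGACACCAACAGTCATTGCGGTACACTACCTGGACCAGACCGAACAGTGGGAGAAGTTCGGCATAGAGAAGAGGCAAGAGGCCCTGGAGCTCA
Vtn exon 3, FGF19, chr11:78313190-78313390: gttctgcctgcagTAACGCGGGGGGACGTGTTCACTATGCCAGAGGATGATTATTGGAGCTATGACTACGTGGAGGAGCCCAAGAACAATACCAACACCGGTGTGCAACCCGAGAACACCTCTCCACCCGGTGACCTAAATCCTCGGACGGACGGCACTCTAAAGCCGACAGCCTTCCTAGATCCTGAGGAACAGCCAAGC
In Fga, F2, Hrg and Serpinc1 all 201 bases are exonic. In C3 195 and in Vtn 188 of the 201 bases are exonic, and the window begins with the end of the preceding intron. The C3 stretch encodes the part of the protein that carries its reactive thioester, by which activated C3 attaches to surfaces, and the Vtn stretch includes the cell attachment motif of vitronectin. The Hrg stretch belongs to the exon that encodes the histidine-rich part of its protein.

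A peak in the vehicle list was found at 38.1% of the 42 genes, against 7.93% of all protein-coding genes. In the FGF19 list the share was 42.9%, against 16.3%. Both lists held a peak at 15 of the 42 genes (35.7%), against 4.31% of all genes. C4b had a peak with vehicle only, and Serpind1, C2 and Cfi had one with FGF19 only. Genes of the list with a peak had a median length of 12205 bp and those without one 31296 bp. The peaks farthest inside the limit were the FGF19 peak 3421 bp from Cfi and the vehicle peak 993 bp from Vtn. Just outside it lay an F10 peak 5056 bp from Proz with vehicle, another FGF19 peak 5193 bp from Cfi, at the Gar1 start, and a vehicle peak 5451 bp from Fgb, near the Plrg1 start.

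The peaks at these genes differed from the lists as a whole in where they lay. A summit within 1 kb of any annotated transcription start site (TSS) was called promoter, and otherwise exon, intron or intergenic. Of the 30 vehicle peaks 25 were exonic (83.3%, Wilson 95% interval 66.4 to 92.7), compared with 17.5% of all vehicle peaks (15.7 to 19.5). Of the 39 FGF19 peaks 31 were exonic (79.5%, 64.5 to 89.2), compared with 8.68% of all FGF19 peaks (7.75 to 9.72). Promoter summits numbered 5 of 30 and 7 of 39, whereas they made up 72.7% and 81.8% of the whole lists. Some of these lay in exons that are close to a TSS, namely exon 3 of Fgg and exon 3 of Vtn in both lists and exon 6 of Vtn with vehicle. With FGF19, the summits at annotated starts of C8g and C2 did so too. Of all 69 summits 1 was classed as intron and 0 as intergenic. Summits near a TSS were classed as promoter first, and the limit of 5 kb from the gene body left little room for intergenic summits. These intervals cover counting error only. They treat peaks as separate, although several genes held more than 1 peak, and the genes were chosen with the peaks known.

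**Figure D1:**
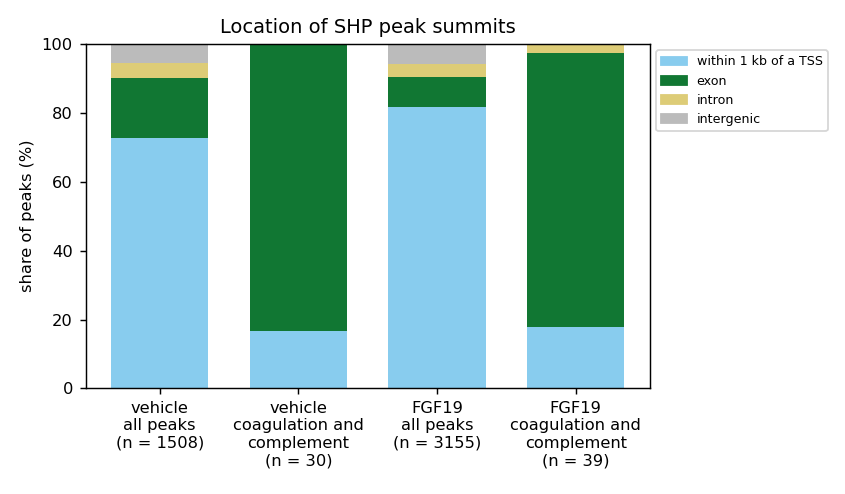
Share of peak summits (%) within 1 kb of a TSS, in exons, in introns and between genes, for all peaks of each list and for the peaks at coagulation and complement genes. Exons hold 83.3% and 79.5% of the summits at these genes but 17.5% and 8.68% of all summits.

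Counted by gene, an exonic summit more than 1 kb from any TSS was found in 15 of the 42 genes in the vehicle list (35.7%), against 0.827% of all protein-coding genes. The FGF19 list also gave 15 genes, against 0.898%, and 14 genes had such a summit in both lists, against 0.59%. The coagulation and complement genes accounted for 9.47% of the 264 exonic vehicle peaks and 11.3% of the 274 exonic FGF19 peaks. Including summits near a TSS, 28 of 30 vehicle and 35 of 39 FGF19 summits lay in an exon of the gene itself. By this count, which includes exons near a TSS, 51.1% of all vehicle and 50.6% of all FGF19 summits lay in any annotated exon. The exons took up a median of 21.5% of the body of the 18 genes concerned, from 5.99% in C8a to 62.8% in Vtn. Most of these summits were in coding sequence, 25 with vehicle and 29 with FGF19. The last exon held 8 and 10, the longest exon 13 and 16, and the first exon 0 and 1. These counts by kind of exon are given without a share over all peaks and describe these genes only.

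Peaks at these genes were strong beside their whole lists, which consist mostly of promoter peaks. No comparison with exonic peaks alone is given, and the genes were chosen with the peaks known. The fold enrichment is the authors' ratio of the tag pileup at the summit to the local input background. Its median was 6.37 with vehicle (range 3.41 to 24.1), against 4.14 over all vehicle peaks, and 4.90 with FGF19 (2.89 to 10.3), against 4.05. Without the fibrinogen genes the medians were 5.64 with vehicle and 5.13 with FGF19. Of the 30 vehicle peaks 27 exceeded the median of their list (90%) and 20 its upper quartile. With FGF19 30 of 39 (76.9%) exceeded the median and 20 the upper quartile. The median pileup was 31 tags with vehicle (15 to 98) and 28 tags with FGF19 (16 to 97), against 24 in each whole list.

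**Figure D2:**
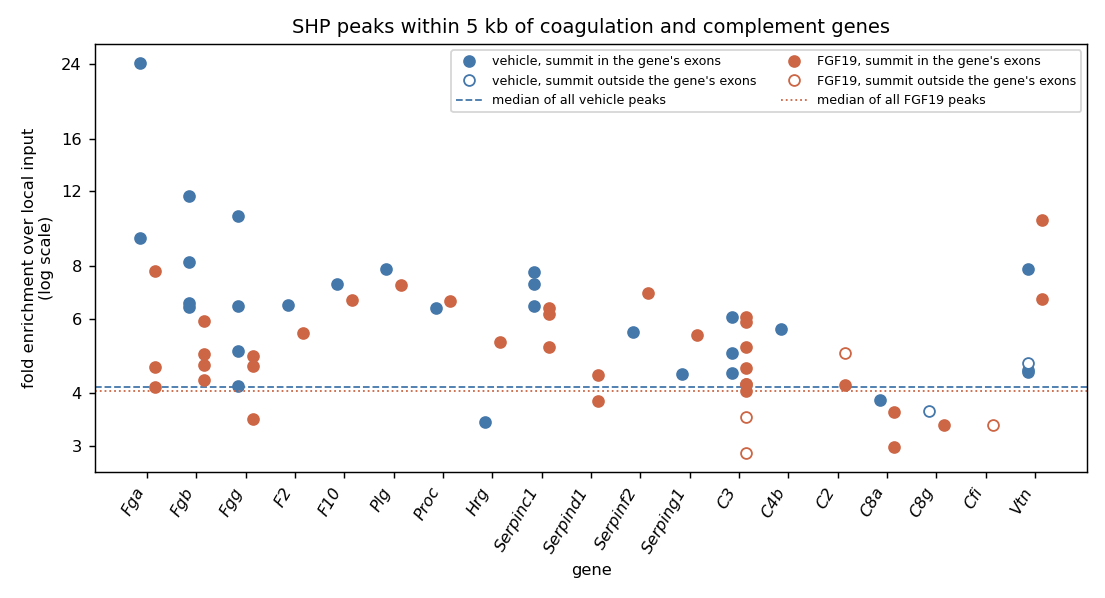
Fold enrichment over local input (log scale) of all 69 peaks at the 19 genes with a peak, with vehicle in blue and FGF19 in red. Open circles are summits outside the gene's exons, and the lines mark the medians of all peaks, 4.14 and 4.05. The highest vehicle values are at fibrinogen genes, up to 24.1 at Fga, while other vehicle peaks of these genes go down to 4.15 at Fgg.

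The 3 fibrinogen genes, whose products assemble into the precursor of fibrin, lie side by side on chromosome 3 and held 10 peaks in each list. Fga (chr3:82830075-82838036, plus strand) encodes the alpha chain. Its exon 5, the longest of its 6 exons with 1147 bp, was spanned by a vehicle peak of 1347 bp and an FGF19 peak of 1375 bp. The summits held 98 tags in the vehicle library and 97 tags in the FGF19 library. By fold enrichment the vehicle peak, at 24.1, ranked 5 in its list, and the FGF19 peak, at 7.77, ranked 71. The tag counts were thus close, while the fold enrichments were far apart. The local input background worked out from pileup and fold enrichment was 3.11 tags with vehicle and 11.6 tags with FGF19. Fga exon 3 held 40 tags (9.30-fold) with vehicle and 36 tags (4.61-fold) with FGF19. A peak at exon 4 was listed with FGF19 only (34 tags, 4.13-fold).

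Fgb (chr3:82846169-82853725, minus strand), which encodes the beta chain, had peaks at exons 2, 4, 7 and 8 of its 8 exons in both lists. The fold enrichment at exon 2 was 6.39 with vehicle and 4.65 with FGF19, with 36 and 44 tags. At exon 4 it was 6.52 and 4.29, with 43 and 44 tags. At exon 7 it was 11.7 and 4.96, with 66 and 49 tags. This was the only one of the 9 fibrinogen regions common to both lists with fewer depth-scaled tags under FGF19, where depth-scaled means divided by the ChIP tags of the library. At exon 8, the last, the fold enrichment was 8.18 and 5.91, with 62 and 61 tags. Exons 1, 3, 5 and 6 of Fgb held no summit in either list.

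Fgg (chr3:82811781-82818975, plus strand) encodes the gamma chain and had peaks at exons 3, 8 and 9 of its 9 exons in both lists. Exon 3 held 33 tags (6.43-fold) with vehicle and 43 tags (4.62-fold) with FGF19. Exon 8 held 57 tags in both lists, at 10.5-fold with vehicle and 4.90-fold with FGF19. In the last exon, exon 9, there were 26 tags (5.04-fold) with vehicle and 41 tags (3.47-fold) with FGF19. Tags and fold enrichment therefore pointed in opposite directions at this exon, as they did at exon 3. A peak at exon 6 was in the vehicle list only (27 tags, 4.15-fold). Fgb and Fgg each had 4 summits in the vehicle list, and 7 of all protein-coding genes had more.

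**Figure D3:**
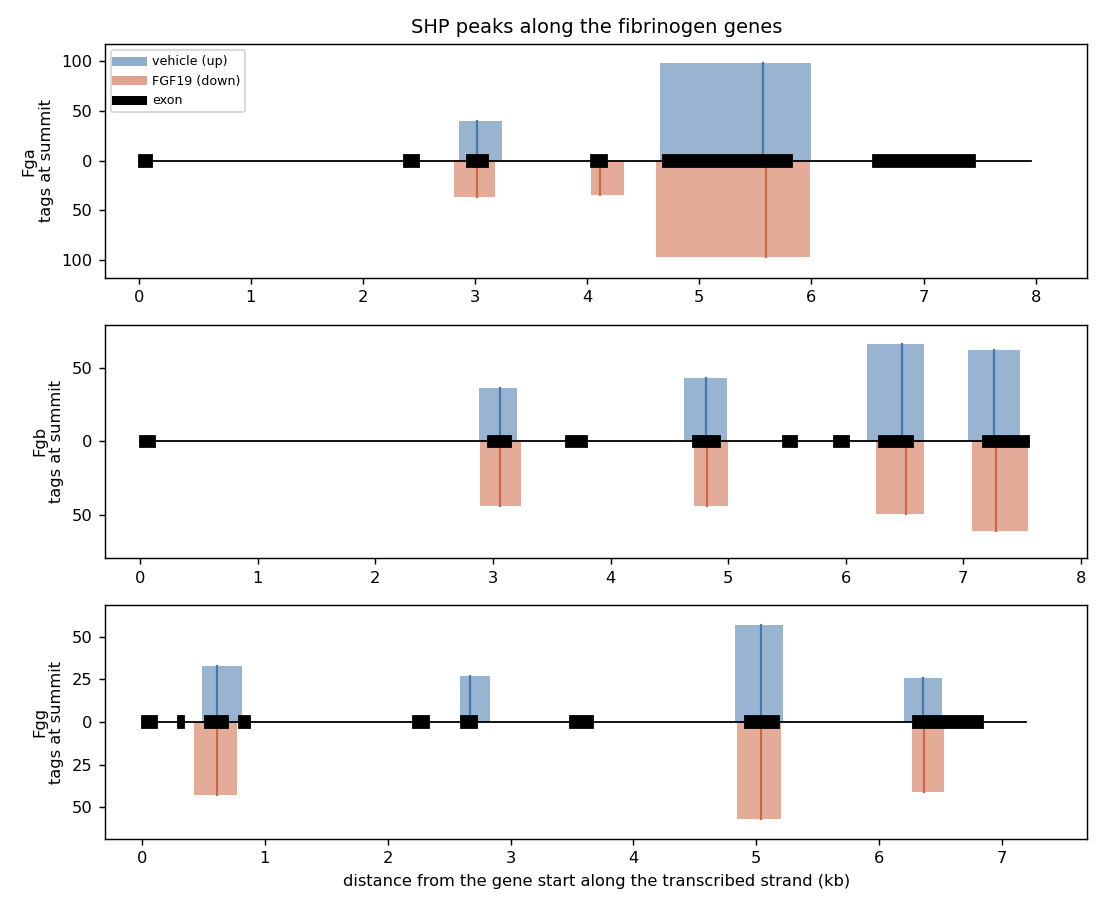
Peaks along Fga, Fgb and Fgg by distance from the gene start in kb. The height of each box is the tags at the summit (vehicle up, FGF19 down), its width is the peak, a line marks the summit and black boxes are exons. Each summit falls within an exon, and at the 9 common regions the summits are 1 to 38 bp apart.

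Of 11 coagulation factor genes other than fibrinogen, 2 had a peak, the same 2 in both lists, where all protein-coding genes had shares of 7.93% and 16.3%. A count this small is not set apart from those shares. F2, prothrombin, the precursor of thrombin, had 1 peak in exon 7, the longest of its 14 exons, which encodes part of a kringle domain. It held 28 tags (6.47-fold) with vehicle and 26 tags (5.54-fold) with FGF19. F10, the protease that activates prothrombin, had 1 peak in its last exon, exon 9, with 34 tags (7.25-fold) and 31 tags (6.65-fold). The last exon of this gene encodes a large part of the protease domain. F5, F7, F9, F11, F12, F13b, Klkb1, Kng1 and Kng2 had no peak within 5 kb in either list.

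Among 6 genes for anticoagulant and fibrinolytic proteins, 3 had a peak in both lists, in each case in the last exon. Over all protein-coding genes 4.31% had a peak in both lists. Plg, which encodes plasminogen, the precursor of plasmin, had its summit at the same base in both lists, in the noncoding end of exon 19. It held 37 tags (7.87-fold) with vehicle and 31 tags (7.22-fold) with FGF19. Proc, protein C, the anticoagulant protease that inactivates factors Va and VIIIa, had a weaker pileup of 18 tags in both lists, at 6.35-fold and 6.61-fold. Its local background was at the lowest level found in each list (1.99 and 1.87 tags). Hrg, histidine-rich glycoprotein, held 22 tags (3.41-fold) with vehicle and 23 tags (5.27-fold) with FGF19 in exon 7, with summits 582 bp apart. Pros1, Proz and Cpb2 had no peak by the rule. The F10 peak was the nearest to Proz, at 5056 bp with vehicle and 5246 bp with FGF19, just beyond the limit.

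All 4 serpin genes, whose products inhibit proteases of these cascades, had a peak with FGF19 and 3 of them with vehicle. Over all protein-coding genes the shares were 16.3% with FGF19 and 7.93% with vehicle, and these 4 genes were chosen with the peaks known. Serpinc1 encodes antithrombin, the main inhibitor of thrombin and factor Xa, and had peaks in exons 3, 4 and 6 of its 8 exons in both lists. With vehicle these held 34, 23 and 29 tags, at 7.25-fold, 6.41-fold and 7.75-fold. With FGF19 they held 29, 20 and 25 tags, at 6.16-fold, 5.13-fold and 6.35-fold. All 3 fold enrichments were lower with FGF19, while the depth-scaled tags were close, with ratios of FGF19 to vehicle of 0.982, 1.00 and 0.992. Serpinf2, alpha-2-antiplasmin, held 26 tags (5.59-fold) with vehicle and 31 tags (6.91-fold) with FGF19 in its last exon. Serping1, the C1 inhibitor, held 15 tags (4.44-fold) and 25 tags (5.49-fold) in exon 3, its longest. The vehicle peak of Serping1 had the lowest pileup of all 69 peaks. Serpind1, heparin cofactor II, had FGF19 peaks only, in exon 2 (20 tags, 4.42-fold) and exon 5 (16 tags, 3.84-fold).

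C3, the central component of complement, had 3 peaks with vehicle and 9 with FGF19. Only 3 protein-coding genes had more FGF19 summits than the 9 in C3. The vehicle summits lay in exon 12 (28 tags, 4.97-fold), exon 21 (29 tags, 4.45-fold) and exon 24 (33 tags, 6.06-fold) of its 41 exons. Exons 12 and 21 also held FGF19 summits, with 26 tags (4.21-fold) and 28 tags (5.14-fold), but exon 24 did not. The other FGF19 exon summits were in exon 17 (30 tags, 5.90-fold), exon 28 (27 tags, 4.21-fold), exon 29 (22 tags, 4.03-fold), exon 30 (25 tags, 4.58-fold) and exon 40 (31 tags, 6.04-fold). Of the remaining FGF19 peaks, one was the only summit at these genes classed as intron (22 tags, 2.89-fold). The other lay 191 bp from the C3 start, just past exon 1, and was classed as promoter (27 tags, 3.51-fold). Of the 42 genes C3 had the largest difference in number of peaks between the lists, while the pileups of all 12 peaks stayed between 22 and 33 tags.

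**Figure D4:**
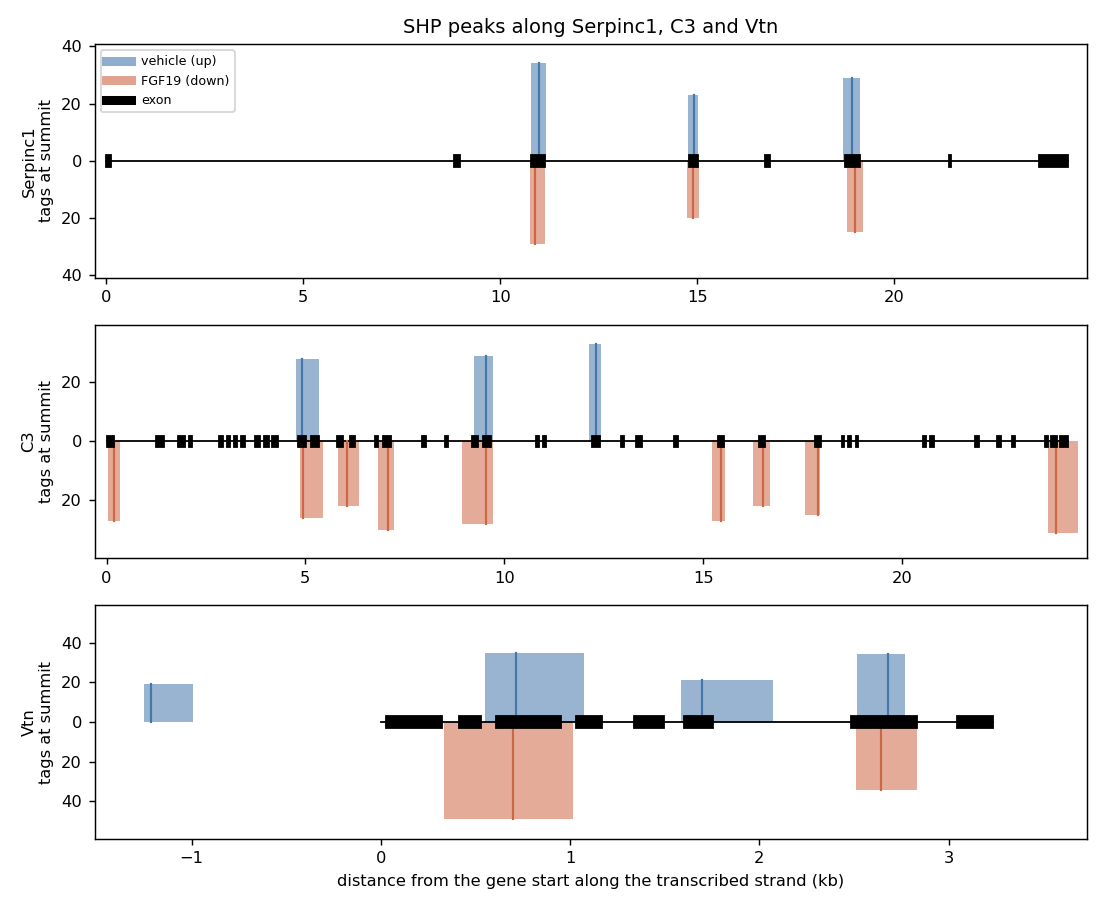
Peaks along Serpinc1, C3 and Vtn by distance from the gene start in kb, drawn with tags at the summit as height (vehicle up, FGF19 down), peak width, summit line and exons in black. Serpinc1 has 3 exonic peaks in both lists, C3 has 3 with vehicle and 9 with FGF19, and Vtn has 4 and 2.

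Of the 6 genes of complement activation, C3 included, 2 had a peak in each list. Over all protein-coding genes the shares were 7.93% with vehicle and 16.3% with FGF19, and a count this small is not set apart from them. The peaks outside C3 were not of the same kind. C4b, whose product is cleaved together with that of C2 to form the classical C3 convertase, had 1 vehicle peak in exon 30 of 41 with 16 tags (5.68-fold). It has a near-identical neighbour, C4a, so the origin of these tags is uncertain. C2 had FGF19 peaks only, and both were classed as promoter. One lay 18 bp from the start of the annotated C2 gene, a model of 35849 bp (16 tags, 4.18-fold). This peak touched no exon of the transcript used for exon numbering, and its summit lay in an exon of another C2 transcript. The other lay 166 bp from the start of Zbtb12, which is within the annotated C2 body (23 tags, 4.96-fold). C5, C1s and Cfb had no peak. The nearest peak to Cfb was 5780 bp away with FGF19, at the Rdbp start. The nearest to C1s was 7821 bp away with vehicle, and C1s is annotated here as a model of 106636 bp.

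Of 5 genes for the terminal pathway, C8a and C8g had peaks and C6, C8b and C9 had none. Over all protein-coding genes 7.93% had a vehicle peak and 16.3% an FGF19 peak. The products of all 5 genes belong to the membrane attack complex. C8a encodes the alpha chain of component C8 and was bound in the noncoding part of its last exon, of 1978 bp. It held 36 tags (3.85-fold) with vehicle and peaks of 25 tags (3.61-fold) and 32 tags (2.98-fold) with FGF19. All 3 fold enrichments were below the median of their list. C8g encodes the gamma chain, and its peaks did not overlap between the lists. The vehicle summit (20 tags, 3.63-fold) lay 137 bp from the start of Fbxw5, and the FGF19 summit (18 tags, 3.37-fold) lay 3 bp from an annotated C8g start.

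The lectin pathway genes Masp1, Masp2, Mbl1 and Mbl2, which encode the mannose-binding lectins and their proteases, had no peak in either list. With shares of 7.93% and 16.3% over all genes, 0 of 4 says little about this group, and binding below the authors' cutoff would not be listed. Among 3 complement regulators, 1 had a vehicle peak and 2 had an FGF19 peak, too few to be set apart from the same shares. Vtn encodes vitronectin, which blocks the terminal complex. It had exonic peaks in both lists and the highest fold enrichment of the 42 genes with FGF19. Its exon 3 held 35 tags (7.88-fold) with vehicle and 49 tags (10.3-fold) with FGF19. Its exon 7 held 34 tags in both lists, at 4.54-fold and 6.68-fold. With vehicle, exon 6 (21 tags, 4.47-fold) and a site 125 bp from the start of the neighbouring Sarm1 (19 tags, 4.71-fold) were also listed. Cfi, factor I, which degrades C3b and C4b, had 1 FGF19 peak downstream of the gene (18 tags, 3.37-fold), 343 bp from the start of Pla2g12a. C4bp had none.

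In 14 of the genes, 24 regions had a peak in both lists that shared at least 1 bp, and there the groups could be set side by side. The fold enrichment was higher with FGF19 in 7 of the 24 (29.2%), with a median log2 ratio of FGF19 to vehicle of −0.24 (−1.63 to 0.63). Over all 678 common regions it was higher in 48.5%, with a median of −0.02. The depth-scaled tags at the summit gave another picture, being higher with FGF19 in 19 of the 24 (79.2%), with a median ratio of 1.14. Over all common regions the same ratio had a median of 1.15 and was higher in 73.3%. The exact 95% counting interval of the ratio included 1 in 22 of the 24 regions. The exceptions were Vtn exon 3 (ratio 1.61, 1.02 to 2.56) and the last exon of Fgg (1.81, 1.08 to 3.09). The intervals cover neither the spread between mice nor the difference in tag extension, which was 260 bp with FGF19 and 240 bp with vehicle. Both lower bounds lie close to 1, and the share of such exceptions over all common regions was not computed.

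The fibrinogen regions are given apart from the others because they made up 9 of the 24. There the fold enrichment was higher with FGF19 in 0 of 9, with a median log2 ratio of −0.60. The derived local background was higher with FGF19 at all 9, with a median ratio of 1.99 (1.42 to 3.73). Unlike the depth-scaled tags, the background was not divided by the depth of the library, so the ratios are on different scales. Depth-scaled tags were higher at 8 of these 9, with a median ratio of 1.15. At the 15 regions of other genes the fold enrichment was higher with FGF19 in 7, with a median log2 ratio of −0.09. At these the background ratio had a median of 0.996 and was above 1 in 7. Over all common regions the median background ratio was 1.01. The part of the background in the fold enrichment of these genes was not tested beyond these values.

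**Figure D5:**
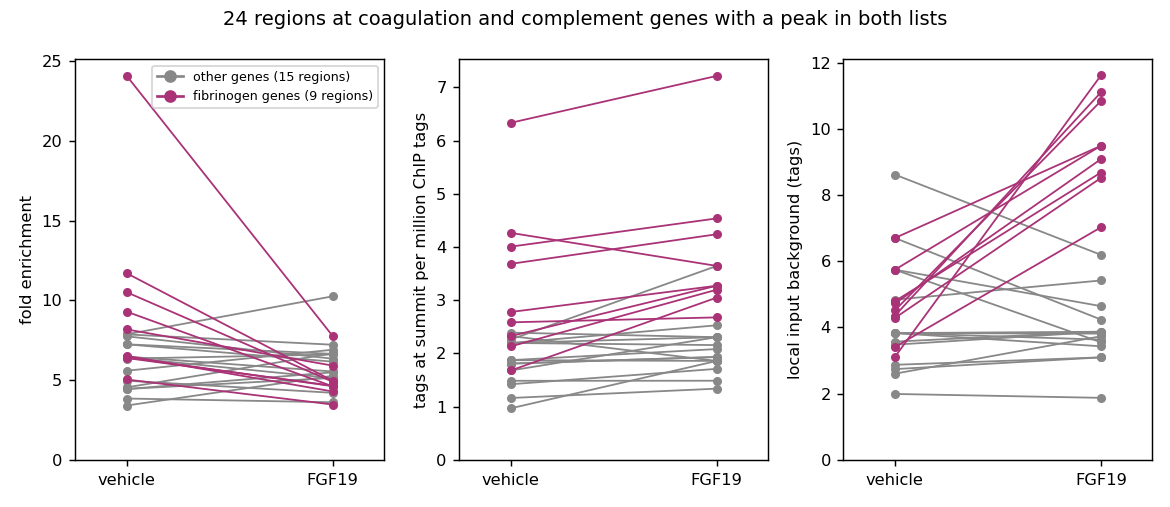
The 24 common regions, each a line from vehicle to FGF19, by fold enrichment (left), depth-scaled tags at the summit (middle) and derived local input background in tags (right). The 9 fibrinogen regions (purple) have lower fold enrichment in all cases, higher depth-scaled tags in 8, and higher background in all, from 1.42 to 3.73 times. The background is not divided by library depth.

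Summits at the common regions were a median of 19.5 bp apart, and 19 of the 24 were within 100 bp. Over all common regions the median distance was 58.5 bp. At fibrinogen the median was 3 bp.

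The sequences around the summits were less GC-rich than the lists. The 201-base windows had a median GC content of 54.0% with vehicle and 54.7% with FGF19, against 63.7% and 68.2% over all peaks. All exonic peaks more than 1 kb from a TSS had 51.7% and 52.2%, which is close to the values at these genes. Exact matches to 9 consensus motifs were counted on both strands of the windows. AGGTCA, the core hexamer bound by many nuclear receptors, was in 10 of 30 vehicle windows (33.3%) and 7 of 39 FGF19 windows (17.9%). Over all peaks its shares were 9.08% and 7.13%, and over all exonic peaks 13.3% and 13.1%. The windows at Fga exon 5, Fgg exons 8 and 9, Vtn exon 3 and C3 exon 21 held it in both lists, and those of Fga and Vtn printed above contain it on the reverse strand. Overlapping windows at one exon share sequence and are not separate cases.

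Each of the other motifs was in at most 5 windows of a list, and their shares are given for all peaks and for the exonic peaks more than 1 kb from a TSS, with vehicle first and FGF19 second. ATTGGC (NF-Y) was in 5 and 2 windows, against 11.2% and 11.1% of all peaks and 8.33% and 5.47% of exonic peaks. TTGCNNAA (C/EBP) was also in 5 and 2, against 5.50% and 4.03% of all peaks and 7.95% and 5.47% of exonic peaks. TTCNNNGAA (STAT) was in 2 and 3, against 3.91% and 3.01% of all peaks and 7.95% and 5.47% of exonic peaks. AANATGGC (YY1) was in 0 and 2, against 9.75% and 7.54% of all peaks but 1.52% and 2.92% of exonic peaks. CCCCGCCCC (SP1) was in 0 and 1, against 13.1% and 14.8% of all peaks but 0.758% and 0.730% of exonic peaks. Low shares of the YY1 and SP1 motifs were thus common to exonic peaks in general. GTTAAT (HNF-1) was in 0 and 1, against 2.25% and 1.68% of all peaks and 3.03% and 4.74% of exonic peaks. CAAAGTCCA (HNF-4) was in 0 of the 69 windows, against 0.199% and 0.0634% of all peaks and 0.379% and 0% of exonic peaks. TGTTTAC (FOXA) was also in 0, against 1.79% and 1.08% of all peaks and 1.14% and 0.365% of exonic peaks. A match or its lack describes the letters in these windows only.

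A second set of 30 coagulation, fibrinolysis and complement genes outside the list was looked up by the same rule. It includes genes of endothelial, platelet or myeloid origin such as Vwf, Thbd and C1qa, and receptors such as C5ar1. Of the 30 genes, 2 had a vehicle peak and 0 had an FGF19 peak, beside 7.93% and 16.3% of all protein-coding genes. The 2 were C1ra and C1rb, which encode proteases of the first complement component and share 1 peak of 15 tags (5.35-fold) in an exon of C1ra. These closely related genes could share tags, and the peak is uncertain for that reason.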

How the data were processed

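SHP ChIP-seq of liver chromatin was analysed from the 2 peak lists the authors deposited. The authors aligned reads to mm9 with Bowtie 1.0.0, with 2 mismatches allowed. Peaks were called by MACS2 2.0.10.20130501 with the group's own input as control, at a q-value of 0.05 and keeping at most 1 tag per position. The deposited signal is the summit pileup, the deposited fold enrichment is a ratio to local input, and the deposited q-value is on the −log10 scale. The local background was computed as (pileup + 1) / fold enrichment − 1. Exons were numbered in the protein-coding transcript with the longest coding sequence. At common regions the peak with the largest fold enrichment on each side was compared, and the interval of the depth-scaled pileup ratio is exact conditional binomial. With 1 library per group no test between groups was made.

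The 42 genes and the other lists were chosen with earlier results of these data known. Every listed gene with a peak is named with its values, and other pathway genes only where they had one. The functions for location, overlap and distance of peaks were checked on simulated peaks, and the motif counting was not part of that check. The tools were Python 3.11.15 with pandas 2.3.3, numpy 2.4.6, matplotlib 3.10.9 and scipy 1.17.1. Alternatives covered distance, assignment, q-value, list length, overlap, location and measure. The inputs were used only as the peak caller had used them.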

Additional observations from a re-analysis of the deposited data

How the results depend on the processing

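Of 70 values recomputed under the alternatives, 62 stayed within 1.5 times of the reported count or close to the reported median, and 8 moved. With peaks at 0 to 10 kb from the gene, 16 to 18 genes had a vehicle peak and 17 to 20 an FGF19 peak. A q-value of 0.01 changed no count. Shortening the FGF19 list to the 1508 peaks with the smallest q-value left 14 genes and 29 peaks there. A promoter window of 500 bp left 3 vehicle peaks near a TSS. The number of common regions with the larger value under FGF19, 7 by fold enrichment, was 4 when summits had to be within 100 bp and 20 by depth-scaled pileup, where the strongest peak was chosen by pileup. It was 14 when the pileup was also divided by the tag extension, an alternative chosen after seeing the data. Without the fibrinogen genes, also chosen after seeing the data, 15 common regions remained, 7 of them larger with FGF19, and the median fold enrichments were 5.64 and 5.13. Taking the strongest peak of each gene gave an FGF19 median of 5.73. Over all annotated genes, 5.48% had a vehicle peak and 11.5% an FGF19 peak. No paired analysis was possible because each group is 1 pooled library, and for the same reason no library could be left out. Depth limits what is listed: the weakest peaks at these genes held 15 and 16 tags, and genes without a peak may be bound below that level.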
